A study of Xenopus tropicalis with 18 samples.

Results

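Coccyx was set against hypochord at stages 56 and 58 of Xenopus tropicalis tadpoles, the 2 earliest stages sampled. The 6 libraries of these stages, of 18 in all, were taken by their stage labels, 3 of coccyx and 3 of hypochord. All came from wild-type animals, and the labels name no treatment. Coccyx and hypochord of stage 56 had replicates 1 and 3, and coccyx and hypochord of stage 58 had replicate 2. The other 12 libraries were coccyx and hypochord of stages 61 and 65, with 3 libraries per tissue and stage. Each tissue was taken by laser capture, and its RNA was amplified before sequencing. Nothing in the labels tells if replicate libraries were made from different animals, so p-values here reflect the spread of these libraries alone, and part or all of it may be technical.

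The urostyle is the rod of bone at the end of a frog's spine. It forms at metamorphosis, which thyroid hormone drives, from a dorsal part, the coccyx, made of vertebral rudiments behind the sacrum, and a ventral part, the hypochord, a rod of skeletal tissue under the notochord. The files give genes by Ensembl identifier without names, and 0 of the identifiers were found in the RefSeq gene table used here. Genes are therefore described by level, by number and by direction, and 4 of them by identifier. For the same reason the tissues could not be checked against marker genes, and no sequence is shown.

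Stage 56 replicate 1 and stage 58 replicate 2 belong to one table of 12 libraries, with 19921 genes each. Their totals were 4191168 counts in stage 56 coccyx, 5414246 in stage 56 hypochord, 5741962 in stage 58 coccyx and 7271829 in stage 58 hypochord. Stage 56 replicate 3 belongs to a second table of 21458 genes whose identifiers do not match the first, and held 17125833 counts in coccyx and 17002519 in hypochord. It was described within its own table alone.

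Many genes counted in early coccyx had no counts in early hypochord, and the reverse was rare. With each library reduced to 1918822 counts, 12793 genes would be detected in stage 56 coccyx and 6875 in stage 56 hypochord of replicate 1. At stage 58 the numbers were 12835 in coccyx and 6611 in hypochord. The hypochord libraries of both pairs thus detected 5918 and 6224 genes fewer than the coccyx libraries, although they were the more deeply sequenced of each pair. In stage 56 replicate 3 the numbers were 11386 and 10175, a gap of 1211 genes. Coccyx was higher in 3 of 3 pairs, with a mean gap of 4451 ± 2810 genes (SD, n = 3 pairs). An exact permutation test within 3 pairs cannot go below a two-sided p of 0.25. In bulk tissue, fewer cells of a type and less RNA per cell cannot be told apart. Loss of transcripts at capture or amplification cannot be told apart from these either, and none of them was tested.

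**Figure D1:**
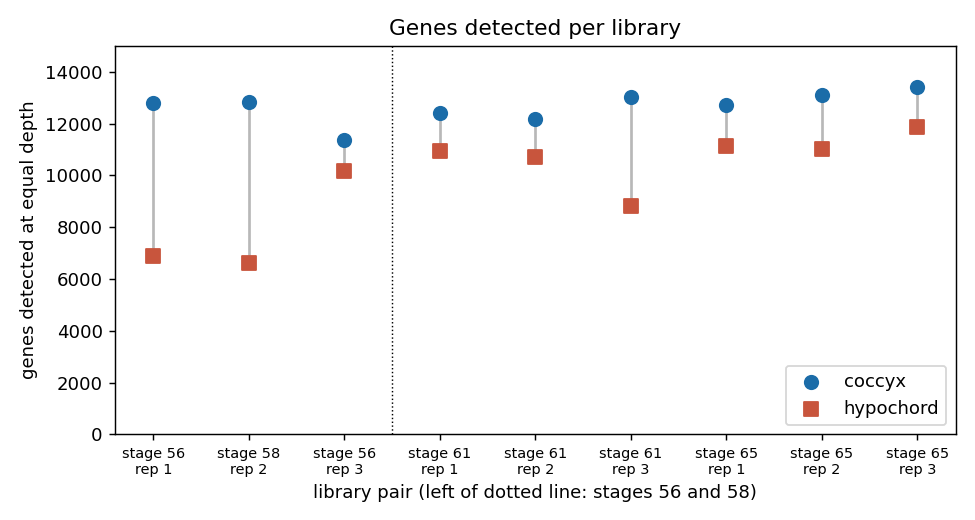
Genes detected at an equal depth of 1918822 counts (vertical axis) in each coccyx library (circles) and hypochord library (squares), by stage and replicate. Hypochord lies below coccyx in each pair, and the hypochord libraries of stage 56 replicate 1 (6875) and stage 58 replicate 2 (6611) are the lowest plotted.

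The missing genes were mostly of low to middle level, and stage 56 replicate 3 did not share the pattern. Levels here are CPM (each count scaled by the library's total). Of 3093 genes at 10 to 30 CPM in stage 56 coccyx of replicate 1, 33.6% had 0 counts in the hypochord library of the pair. At stage 58 the share was 27.6% of 2926 genes. In replicate 3 of stage 56 it was 1.33% of 2477 genes. At 5 to 10 CPM the shares were 55.9%, 49.8% and 4.52%, and at 300 CPM or more they were 0.703%, 0.459% and 0. The gap was as large at equal depth. With 1918822 counts per library, the shares of genes at 10 to 30 CPM became 38.7% at stage 56 and 36.6% at stage 58, against 2.42% in replicate 3. In the 6 pairs of stages 61 and 65 this equal-depth share ran from 1.18% to 18.3%, the highest being stage 61 replicate 3.

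**Figure D2:**
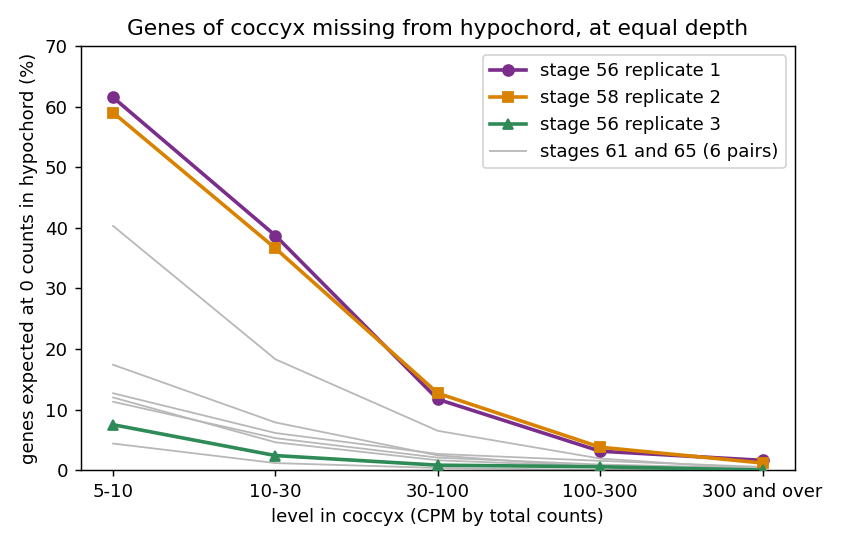
Share of coccyx genes expected to have 0 counts in the hypochord library of the same pair at an equal depth of 1918822 counts (vertical axis), by level in coccyx (horizontal axis, CPM by total counts). The pairs of stage 56 replicate 1 and stage 58 replicate 2 start at 61.5% and 59.0%, stage 56 replicate 3 starts at 7.51%, and grey lines are the 6 pairs of stages 61 and 65.

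The reverse loss was small in every early pair. Of genes at 10 to 30 CPM in hypochord, 0.945% had 0 counts in coccyx at stage 56 replicate 1, 0.336% at stage 58 and 0.291% at stage 56 replicate 3.

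A set of genes was absent from both early hypochord libraries of the larger table. Of 9371 genes with at least 10 counts in both early coccyx libraries, 1551 (16.6%) had 0 counts in both hypochord libraries. A further 1205 were missing from stage 56 hypochord alone and 1039 from stage 58 hypochord alone, and 5576 were counted in both. Of the 9371 genes, 29.4% were missing at stage 56 and 27.6% at stage 58. The genes missing from both made up 56.3% of those missing at stage 56 and 59.9% of those missing at stage 58. Their median level in early coccyx was 7.17 CPM, against 23.1 CPM for the 9371. Whether the overlap exceeds what low level alone would give was not tested. Of 4330 genes with at least 10 counts in both hypochord libraries, 0 were absent from both coccyx libraries. The number absent from both hypochord libraries depended on the minimum in coccyx, with 2358 genes at 5 counts, 870 at 20 counts, and 941 when the libraries were thinned to the smallest total.

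Most of the 1551 genes were counted in hypochord at later stages. In the 4 hypochord libraries of stages 61 and 65, which the choice of these genes did not use, 1434 of them (92.5%) had counts in at least 1 library and 872 (56.2%) in all 4. Of the 9371 genes counted in both early coccyx libraries, 98.5% were found in at least 1 and 88.3% in all 4. The median level of the 1551 genes was 7.17 CPM in early coccyx, 5.74 in later coccyx and 2.52 in later hypochord. The other 117 genes had no count in any of the 4, out of 137 such genes among the 9371. The 1205 and 1039 genes missing from a single early hypochord library were found in all 4 later hypochord libraries in 83.5% and 87.3% of cases.

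Coccyx and hypochord of one pair had many of their most abundant genes in common. Of the 100 most abundant genes, 74 were common to coccyx and hypochord at stage 56 and 67 at stage 58, while stage 56 and stage 58 shared 54 in coccyx and 65 in hypochord. In stage 56 replicate 3 the tissues shared 93. At stages 61 and 65, replicates 1 and 2 of one tissue shared 55 to 78. The same gene ranked first in both tissues of stage 56 replicate 1, at 36130 CPM in coccyx and 37270 CPM in hypochord. At stage 58 the tissues had different first genes. The first gene of stage 58 coccyx had 36440 CPM there, 826 CPM in stage 56 coccyx, and 3.51 and 6.19 CPM in the hypochord libraries of stages 56 and 58. The first gene of stage 58 hypochord had 53590 CPM there, 8857 CPM in stage 58 coccyx, and 924 and 1176 CPM in coccyx and hypochord of stage 56.

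Hypochord varied more between stages 56 and 58 than coccyx did, at low and middle levels. Among 4729 genes with a mean of 5 to 30 CPM over the 12 libraries, 40.5% differed by 4-fold or more between the hypochord libraries of stages 56 and 58, and 12.3% between the coccyx libraries. Among 3126 genes at 30 to 300 CPM the shares were 35.4% and 15.9%. At 300 CPM and above, with 412 genes, they were 25.2% and 26.7%. Replicates 1 and 2 of one tissue at stages 61 and 65 differed by 4-fold in 1.02% to 8.59% of genes at 5 to 30 CPM. These ratios carry a prior of 2 CPM in each library, and stage and replicate cannot be told apart between the early libraries. These comparisons of single libraries have no test.

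The test of the tissue difference took stages 56 and 58 together, with 2 libraries per tissue, and shared its estimate of the spread with the libraries of stages 61 and 65 in the same table. Between the early hypochord libraries 40.5% of genes at 5 to 30 CPM were past 4-fold, against 1.02% to 8.59% between those later replicates. The p-values of this shared fit may therefore be too small. From the early libraries alone, with stage as a block and 1 residual degree of freedom, 129 genes were called. Far more genes were higher in coccyx than in hypochord. With edgeR's quasi-likelihood test and Benjamini-Hochberg adjustment, 2707 of 11729 genes (23.1%) had the higher level in coccyx and 75 (0.639%) in hypochord at an adjusted p under 0.05. In this fit coccyx thus held 97.3% of the calls. A gene could enter this test through the early coccyx libraries alone, which favours a difference without forcing a call, or through the later libraries. Of the genes higher in coccyx, 1849 (68.3%) had 0 counts in both hypochord libraries and 565 (20.9%) in one of them, where the 11729 tested genes included 3039 (25.9%) and 2929 such genes. The other 293 genes (10.8%) were counted in both hypochord libraries. Each of the 75 genes higher in hypochord was counted in both hypochord libraries, and 1 of them had 0 counts in a coccyx library. The split of the calls depended on the method. DESeq2 called 3561 genes higher in coccyx and 376 in hypochord, and limma voom 3436 and 147. With total counts edgeR called 3136 and 32, and from the early libraries alone 98 and 31. The median fitted log2 fold change over all tested genes was 0.93 with TMM factors and 1.32 with total counts, a shift of 0.39, and 3168 genes were called with total counts. That median moved more with the libraries and the filter. It was 2.85 without stage 56 hypochord, 2.55 without stage 58 hypochord, 2.01 with the pair as a block, and -0.084 over genes with at least 10 counts in each early library. Leaving out 1 library at a time gave 1451 calls without stage 58 coccyx, 1634 without stage 56 coccyx, 1810 and 1795 without replicates 1 and 2 of stage 65 coccyx, and 4215 without stage 56 hypochord.

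The labels give replicate numbers but do not state that same-numbered coccyx and hypochord libraries are paired. With the numbers taken as pairs within a stage, the pair as a block lowered the calls to 182. Of these, 165 (1.41% of tested genes) were higher in coccyx and 17 (0.145%) in hypochord. Of the genes called without the block, 157 higher in coccyx and 11 higher in hypochord were also called with it. When only genes with at least 10 counts in each of the 4 early libraries were tested, edgeR called 0 of 4263 (591 had an unadjusted p under 0.05). DESeq2 called 240 of them (156 higher in coccyx, 84 in hypochord) and edgeR with the block 85 (64 and 21). That rule removes every gene missing from a hypochord library, and among the genes it kept the direction depended on the scaling. By total counts 52.9% and 55.2% of them had the higher level in coccyx at stages 56 and 58, and with TMM factors 42.5% and 42.2% did.

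The excess of coccyx calls over hypochord calls shrank with abundance. Below a mean log2 CPM of 3, 1783 of 4587 tested genes (38.9%) were higher in coccyx and 5 in hypochord. From 3 to 5, the numbers were 734 of 3810 (19.3%) and 20, and from 5 to 7 they were 158 of 2352 (6.72%) and 25. At 7 and above, 32 of 980 genes (3.27%) were higher in coccyx and 25 (2.55%) in hypochord. For all genes tested, log2 ratios (coccyx to hypochord) were taken on CPM with the TMM factors and a prior of 2. Their median was lower above a mean log2 CPM of 5 than below it, without a fall at every step at stage 58. It was 1.04 and 1.10 at stages 56 and 58 below a mean log2 CPM of 3, and 1.01 and 1.24 from 3 to 5. From 5 to 7 it was 0.051 and 0.032, and at 7 and above -0.39 and -0.25. The negative sign at 7 and above depended on the scaling. With total counts the medians there were -0.043 and 0.23, against 1.21 and 1.15 below a mean log2 CPM of 3.

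**Figure D3:**
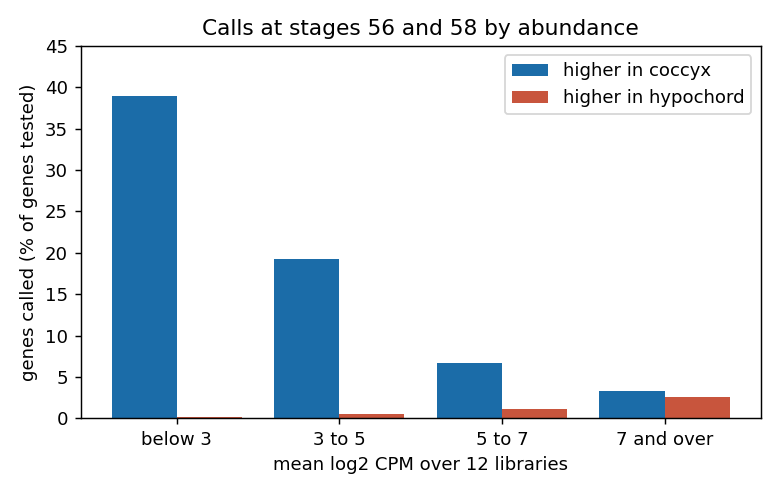
Genes called in the tissue difference of stages 56 and 58, as a percentage of the genes tested (vertical axis), by mean log2 CPM over 12 libraries (horizontal axis). Bars higher in coccyx fall from 38.9% to 3.27% with abundance, and bars higher in hypochord rise from 0.109% to 2.55%.

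The pairs of stages 56 and 58 gave the same direction for nearly all called genes, and less often for the tested genes at large. Of 2707 genes higher in coccyx, 2705 had the higher level in coccyx in both pairs, and 75 of 75 genes higher in hypochord had it in hypochord in both. The test favours such genes. Among all tested genes 6001 were higher in coccyx in both pairs, 1612 were higher in hypochord in both, and 3801 differed in direction on the TMM scale. With total counts the numbers were 6747, 1085 and 3582. Across 8037 genes with a mean of at least 5 CPM in the early libraries, the log2 ratios of stage 56 and stage 58 were weakly related (Pearson's r 0.27, Spearman's rho 0.23). With the 4263 genes of at least 10 counts in each early library, these were 0.26 and 0.19. The points are genes of the same libraries, not replicates.

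**Figure D4:**
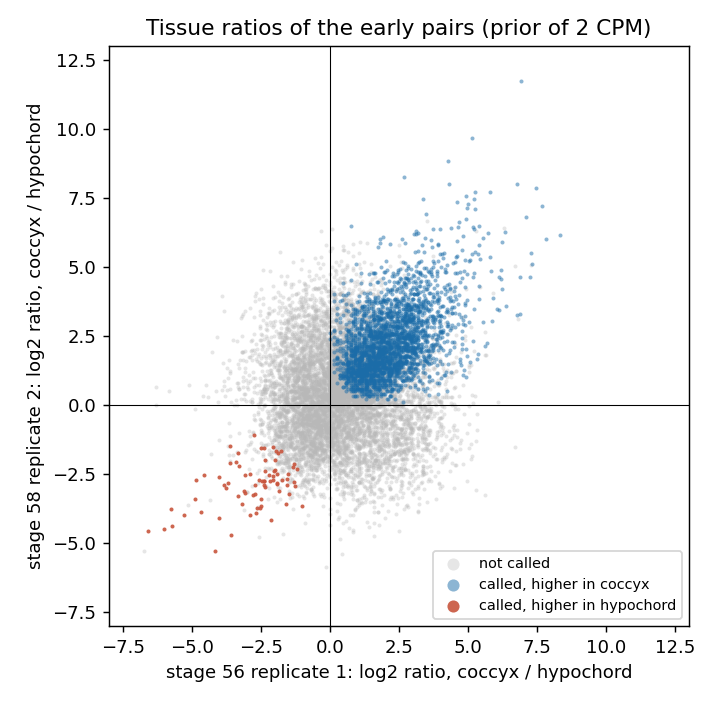
Log2 ratio of coccyx to hypochord of each tested gene at stage 56 replicate 1 (horizontal axis) and stage 58 replicate 2 (vertical axis), on TMM-normalised CPM with a prior of 2. Of the 2707 genes called higher in coccyx 2705 lie in the upper right, and the 75 called higher in hypochord in the lower left, while 3801 of 11729 genes have opposite signs in the pairs.

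Differences of 4-fold or more were also counted pair by pair, on CPM by total counts. In stage 56 replicate 1, 2448 of 7734 genes with a mean of at least 5 CPM (31.7%) were 4-fold or more higher in coccyx and 307 (3.97%) in hypochord. In stage 58 replicate 2 the numbers were 2480 of 7380 (33.6%) and 416 (5.64%). In stage 56 replicate 3 they were 199 of 7130 (2.79%) and 99 (1.39%). A gene counted in a single tissue could pass this filter through that tissue. With the prior of 2 CPM it was then always past 4-fold, so the filter favours genes missing from hypochord. Genes with at least 10 counts in each early library of the larger table numbered 4263. Of these, 482 were 4-fold higher in coccyx and 156 in hypochord at stage 56, and 618 and 241 at stage 58. Over the genes with a mean of at least 5 CPM in the 4 early libraries of the larger table, 1214 were 4-fold higher in coccyx in both pairs, which is 49.7% of the stage 56 list and 46.4% of the stage 58 list. The 49 genes that were 4-fold higher in hypochord in both were 17.6% and 12.3% of their lists. These lists could also take in genes counted in a single tissue. Among the 4263 genes, 128 were 4-fold higher in coccyx in both pairs and 41 in hypochord. In the 4 pairs of stages 61 and 65, 570 of the 1214 genes (47.0%) were higher in coccyx every time, against 24.8% of the 8037, and 17 of the 49 (34.7%) were higher in hypochord every time, against 5.08%. A further 90 genes were 4-fold higher in coccyx at stage 56 and in hypochord at stage 58, and 51 the other way round.

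Each stage was also tested alone, with 1 library per tissue that was assumed to vary like those of stages 61 and 65. The early hypochord libraries differed more from each other than those replicates did, with 40.5% of genes at 5 to 30 CPM past 4-fold against 1.02% to 8.59%, so these p-values may be too small. At stage 56, edgeR's quasi-likelihood test found 2449 genes (20.9%) with the higher level in coccyx and 179 (1.53%) with the higher level in hypochord. At stage 58 it called 2883 (24.6%) and 365 (3.11%). The stages shared 1113 genes higher in coccyx, 45.4% of the stage 56 calls and 38.6% of the stage 58 calls. They shared 27 genes higher in hypochord, 15.1% and 7.40% of the calls. A further 82 genes were called higher in coccyx at stage 56 and in hypochord at stage 58, and 38 the other way round. Under the same assumption, 1900 genes passed the test of a difference between the stage 56 and stage 58 tissue differences, in which stage and library cannot be told apart. In 953 of them (8.13%) the excess of coccyx was larger at stage 56, and in 947 (8.07%) it was larger at stage 58. Hypochord moved more than coccyx between the stages in 926 of the 953 genes (97.2%) and 901 of the 947 (95.1%), against 49.6% of all tested genes. The same early values chose these genes, which favours the tissue that varied more, so the shares and the medians that follow are a description. For the 953 genes the median log2 difference between stages 56 and 58 was -3.97 in hypochord and 0.0078 in coccyx, and for the 947 genes it was 3.65 and 0.031. Of the 953 genes, 560 were missing from stage 56 hypochord alone, against 1549 of the 11729 tested genes. Of the 947 genes, 472 were missing from stage 58 hypochord alone, against 1380 of the 11729. With at least 10 counts in each early library, 146 of 4263 genes passed this test. Without replicate 1 or 2 of stage 65 coccyx, stage 56 gave 1628 or 1661 calls and stage 58 gave 2155 or 2165.

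The early tissue difference was then set against that of stages 61 and 65 in the same fit. By the later mean tissue difference, 85 genes passed with coccyx higher (0.725%) and 2 with hypochord higher (0.0171%), with 1417 genes at an unadjusted p under 0.05. Of the genes called early, 78 of 2707 higher in coccyx and 2 of 75 higher in hypochord were among them. Their median log2 fold changes later kept the early sign, at 0.45 and 0.56 at stages 61 and 65 for the genes higher in coccyx and -0.76 and -0.45 for those higher in hypochord. The medians over all tested genes were 0.093 and 0.16.

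The test of the difference between early and later stages called 1086 genes without the block. In 1083 of them (9.23%) the coccyx excess was larger early, and in 3 (0.0256%) it was smaller or the excess of hypochord was larger. Of the 1086 genes, 772 (71.1%) had 0 counts in both early hypochord libraries and 224 in one of them. The 11729 tested genes included 3039 (25.9%) and 2929 such genes, so only the share with 0 counts in both was raised. The median levels of the 1086 genes were 8.28 CPM in early coccyx, 7.06 in later coccyx and 7.27 in later hypochord, on the TMM scale. The early and later values entered the test that chose these genes, so the shares and medians are a description. With the pair as a block edgeR called 0 genes, with 2485 at an unadjusted p under 0.05, and 0 were called when either early coccyx library or any one library of stages 61 and 65 was left out. Without stage 56 hypochord it called 2732 genes, and without stage 58 hypochord 2279. DESeq2 called 2138 and limma voom 1389 without a block.

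Single genes were chosen by the size of the smaller of their early ratios, among called genes with at least 30 CPM in both early libraries of the higher tissue and no overlap between tissues. CPM here and below carry the TMM factors. Of the called genes (23.1% and 0.639% of those tested), this left 173 with the higher level in coccyx and 65 with the higher level in hypochord. Their early values chose them and are a description. The levels of stages 61 and 65 did not enter the ranking, although their libraries shared in the estimate of spread behind the calls. There, 121 of the 173 genes (69.9%) had a positive fitted log2 fold change at both stages, against 37.2% of all tested genes, and their medians were 1.60 and 1.39. Of the 65 genes, 39 had a negative one at both stages, against 25.4% of all tested genes, with medians of -0.73 and -0.42.

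ENSXETG00000011683 had the largest such excess in coccyx. It had 417 CPM in stage 56 coccyx and 458 CPM in stage 58 coccyx, against 0.379 CPM (2 counts) and 0 counts in the hypochord libraries. The early tissues did not overlap, as the choice required. The ratio of pooled counts, scaled by total counts without the TMM factors, was 3170. Its 95% counting interval was 878 to 26200, which includes no other error. The fitted tissue difference was 11.01 in log2 units (SE 2.32, edgeR adjusted p = 0.0144), and 11.08 with the block (adjusted p = 0.0384). Over 22 alternatives the edgeR, DESeq2 or limma adjusted p ran from 1.94e-16 to 0.0396. The lowest of these came from the early libraries alone, with 1 residual degree of freedom. The fitted difference was 13.87 without stage 56 hypochord and 10.07 without stage 58 hypochord. In the first of these fits the early hypochord library that was left had 0 counts, so the size of that difference is not well determined. Later it was lower in coccyx, with 90.7 and 3.06 CPM at stage 61 and 22.7 and 46.3 CPM at stage 65. In later hypochord it had 0 counts in 3 libraries and 5.61 CPM in replicate 2 of stage 65. The later tissue difference was 7.20 ± 1.59 and missed the threshold (edgeR adjusted p = 0.0626). Both stage 61 hypochord libraries had 0 counts, and the test of early against later differences gave 3.81 with an SE of 138.9 (edgeR adjusted p = 0.9999). With so wide an error this test cannot decide if the early difference differs from the later one.

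ENSXETG00000004481 followed, with 442 and 373 CPM in coccyx of stages 56 and 58 and 0.190 and 0.539 CPM in hypochord (1 and 3 counts). Its pooled ratio, again scaled by total counts, was 1460, with a 95% counting interval of 570 to 5360. The fitted difference was 10.02 in log2 units (SE 2.32, edgeR adjusted p = 0.0164), and the block ended this call (10.04, adjusted p = 0.0508, the highest of 22 alternatives that began at 1.9e-14). That lowest value again came from the early libraries alone, with 1 residual degree of freedom. The fitted difference was 9.31 without stage 56 hypochord and 10.88 without stage 58 hypochord. The coccyx level was uneven later. It was 272 CPM in replicate 1 of stage 61, 0.382 CPM in replicate 2, and 7.65 and 12.7 CPM at stage 65, while hypochord had 0.880 to 5.61 CPM. In replicate 2 of stage 61 coccyx had 2 counts and hypochord 3. The test of early against later differences missed the threshold (adjusted p = 0.148).

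ENSXETG00000020532 had the largest excess in hypochord and was itself an abundant transcript there. Hypochord held 7500 CPM at stage 56 and 3540 CPM at stage 58, against 77.0 and 148 CPM in coccyx, without overlap, as the choice required. By edgeR, coccyx differed from hypochord by -5.61 in log2 units (SE 1.18, adjusted p = 0.0134), or -5.59 with the block (adjusted p = 0.0305). Without stage 56 coccyx the call ended (adjusted p = 0.0617), and it also ended with at least 10 counts in each early library (adjusted p = 0.0728, the highest of 23 alternatives that began at 2.52e-10). Here too the lowest adjusted p came from the early libraries alone, with 1 residual degree of freedom. The levels in replicates 1 and 2 of stage 61 were 3510 and 881 CPM for hypochord, against 662 and 94.2 for coccyx. Those of stage 65 were 109 and 95.4 CPM, against 12.1 and 4.83. Hypochord was above coccyx in each of these later pairs, and the choice required it in the early pairs. Both tissues were lower at stage 65 than at stages 56 and 58. The later tissue difference was -3.06 ± 0.75 (edgeR adjusted p = 0.0700), and the test of early against later differences missed the threshold (edgeR adjusted p = 0.239).

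ENSXETG00000003243 reached 253 CPM in hypochord at stage 56 and 380 CPM at stage 58, while coccyx held 1.93 CPM and 15.1 CPM. The fitted difference was -5.21 in log2 units (SE 1.02, edgeR adjusted p = 0.0132), or -5.76 with the block (adjusted p = 0.0305), and with at least 10 counts in each early library it missed the threshold (adjusted p = 0.0606, the highest of 23 alternatives that began at 2.18e-06). It was -7.34 without stage 58 coccyx and -4.39 without stage 56 coccyx. Replicates 1 and 2 of stage 61 gave 442 and 178 CPM for hypochord, against 61.9 and 35.7 for coccyx. Those of stage 65 gave 15.9 and 10.4 CPM, against 0.604 and 0.219. Its later tissue difference, -3.78 ± 0.71, lay just under the threshold (edgeR adjusted p = 0.04996). The other named genes had edgeR adjusted p-values of 0.0626, 0.126 and 0.0700 later. No alternatives are reported for this later test, so the gene is not set apart from them by it. Its order, with hypochord above coccyx, held in the 4 pairs of stages 61 and 65, and the choice required it in the early pairs. The test of early against later differences missed the threshold (edgeR adjusted p = 0.566).

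**Figure D5:**
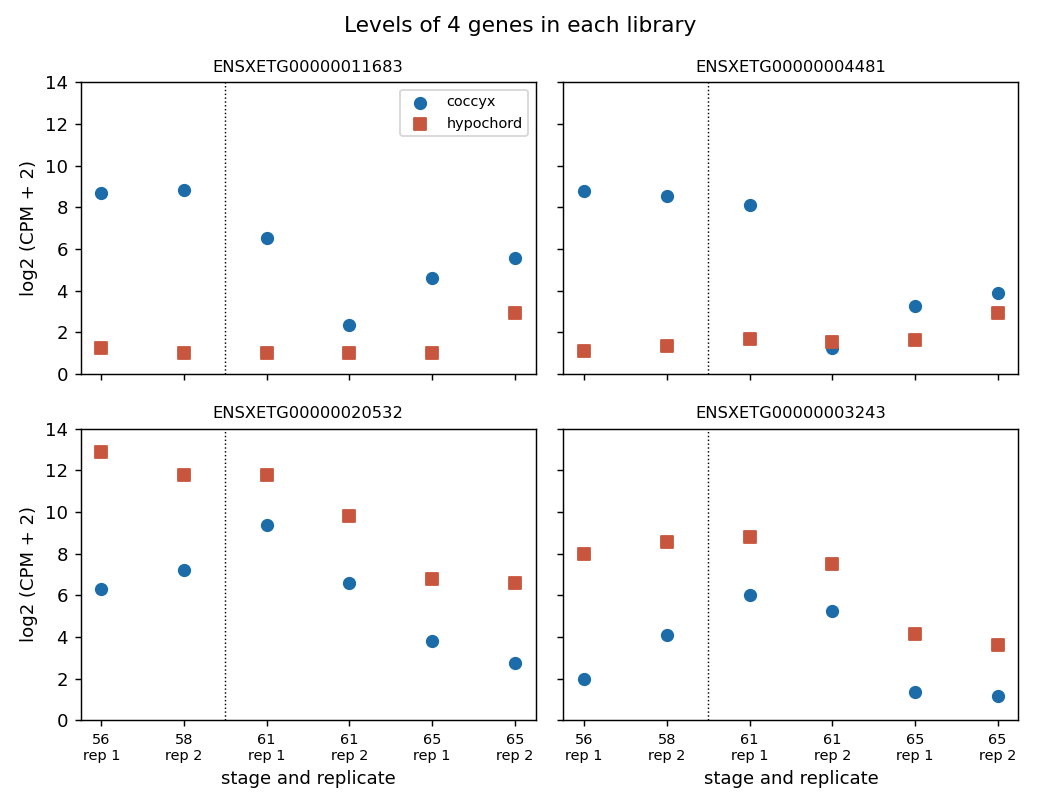
Level of 4 genes as log2 of TMM-normalised CPM plus 2 (vertical axis) in each coccyx library (circles) and hypochord library (squares) of the larger table, by stage and replicate (horizontal axis), with stages 56 and 58 left of the dotted line. The upper genes have 373 CPM or more in early coccyx and 0.539 CPM or less in early hypochord. The lower genes are higher in hypochord in each pair, which the choice of genes required in the early pairs.

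Stage 56 replicate 3 showed a much smaller tissue difference, within its own table, than the other early pairs did in theirs. The median absolute log2 ratio over genes with a mean of at least 5 CPM was 0.43 there, against 1.27 in stage 56 replicate 1 and 1.48 in stage 58 replicate 2. Of 21458 genes in replicate 3, 1283 had at least 10 counts in coccyx and 0 in hypochord, and 342 had the reverse. Their medians were 1.52 and 1.71 CPM in the tissue where they were counted. Of 19921 genes at lower depth, the numbers were 3422 and 50 in stage 56 replicate 1, and 3460 and 17 in stage 58 replicate 2. The 199 genes that were 4-fold higher in coccyx reached 12000 CPM in coccyx. In the stage 61 and stage 65 libraries of the same table, 124 of them (62.3%) were higher in coccyx at both stages, against 31.6% of the 7130 genes. Their median log2 ratios were 2.64, 1.64 and 1.08 at stages 56, 61 and 65. Of the 99 genes that were 4-fold higher in hypochord, 33 (33.3%) were higher in hypochord at both later stages, against 26.3% of the 7130 genes, and their median ratios were -2.49, -0.18 and -0.043. With 1 library per tissue these differences have no replicate check. Whether replicate 3 differs from the other early pairs through the animals, the capture or the library preparation was not tested.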

How the data were processed

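RNA from laser-captured coccyx and hypochord was measured by RNA-seq. The authors deposited raw read counts per gene for each library. FastQC, cutadapt 1.8.1 and HTSeq 0.13.5 appear in the submitters' processing notes. The sources used here give no aligner, genome build or annotation. Gene totals of the libraries are given with the results. No molecular identifiers are recorded, so intervals and the floor of 3 counts cover counting error only.

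The 12 libraries of the larger table were fitted in R 4.3.3 with edgeR 4.0.16, with stages 56 and 58 as one group per tissue, filterByExpr and TMM factors. The quasi-likelihood test with Benjamini-Hochberg adjustment used a threshold of 0.05. Pooling stages 56 and 58 puts the stage difference into the spread, while tests of each stage alone take the spread from stages 61 and 65. Same-numbered coccyx and hypochord libraries deviated together from their group means, and the numbers were taken as pairs. Across 11729 genes, r was 0.30 early, 0.35 at stage 61 and 0.19 at stage 65. The early r cannot tell pairing from a stage change shared by the tissues, since its replicates were of different stages. Alternatives used DESeq2 1.42.0 and limma 3.58.1, other scalings and filters, and left-out libraries. Libraries of different depth were compared by the number of genes expected at 1918822 counts. Genes were named by the smaller of the early log2 ratios (CPM plus a prior of 2), 2 per direction, among called genes with at least 30 CPM in both early libraries of the higher tissue and no overlap. Gene group and marker lists were not run, since identifiers could not be paired with names. The comparison, rules and tests were chosen with earlier results of these data known. Statistical scripts were tested on simulated data. Replicate 3 was kept to its own table and was not tested.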

Additional observations from a re-analysis of the deposited data

Results flagged for a closer look

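In the larger table, the early tissue difference (stages 56 and 58) differed from the later one (stages 61 and 65) for 1086 genes by a test of the difference itself with edgeR, 1083 of them with the larger coccyx excess early. With the pair as a block 0 genes passed. By the same kind of test, 1900 genes passed for a difference between the tissue differences of stages 56 and 58, 953 with the larger coccyx excess at stage 56 and 947 at stage 58. In the latter test each stage has 1 library per tissue, assumed to vary like those of stages 61 and 65, and stage and library cannot be told apart.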

How the results depend on the processing

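The early tissue difference called 2782 genes. It gave 182 with the replicate block, 129 from the early libraries alone with stage as a block, 5535 with a group for each stage, 941 after thinning to equal depth, and 0 with at least 10 counts in each early library. Under that last filter the block gave 85 and DESeq2 240. Without 1 library at a time the count ran from 1451 to 4215. The difference between early and later stages, 1086 genes, gave 0 with the replicate block, after thinning and with 10 counts in each early library (2485, 2104 and 374 at an unadjusted p under 0.05), 3257 with a group for each stage and 2138 with DESeq2, and 0 to 2732 without 1 library. It could not be made from the early libraries alone. With 10 counts in each early library, stage 56 alone gave 135, stage 58 alone 265, and the difference between these stages 146. Without 1 library, stage 56 gave 1628 to 2968 and stage 58 gave 2155 to 3761. Genes absent from both early hypochord libraries numbered 2358 at 5 counts, 870 at 20 counts and 941 after thinning, and the reverse set 1 at 5 counts and 1 after thinning. In replicate 3, genes higher in coccyx numbered 655 at 2-fold, 68 at 8-fold, 64 at a mean of 20 CPM and 93 with a prior of 5, and genes higher in hypochord 699, 21, 26 and 35, or 171 with a prior of 0.5. The correlation of the pairs was 0.29 at a mean of 20 CPM. Other scalings, limma voom and no filter kept the tissue difference within 1.5 times its count. The 4 named genes kept their direction in each alternative run, which their choice by large early ratios in the same libraries made likely beforehand. Those higher in coccyx were not run with 10 counts in each early library, since that filter removed them. The filter of 10 counts with the block or with DESeq2, leaving out pairs in the detected genes, and the directions under both scalings, were chosen after seeing the data. A floor of 3 counts was 0.569 and 0.539 CPM in hypochord of stages 56 and 58.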
